A study of Mus musculus with 12 samples.

Results

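Interferon regulatory factors (IRFs) are a family of transcription factors that share a DNA-binding domain and bind the interferon-stimulated response element (ISRE). The family was taken as the 8 genes *Irf1*, *Irf2*, *Irf3*, *Irf4*, *Irf5*, *Irf7*, *Irf8* and *Irf9*, chosen by symbol and not by any measured value. All 8 were among the 12960 genes of the count table, and all 8 passed the filter on low counts that left 10822 genes to test. RNA was measured in bone marrow-derived macrophages (BMDMs), which are primary mouse cells matured in culture with L929 medium as the source of M-CSF. The cells were wild type (WT) or came from mice lacking AMPKβ1 in the whole body (AMPKβ1-/-), a regulatory subunit of the energy-sensing kinase AMPK, so the gene was absent during differentiation as well as during treatment. Both genotypes were given 0.1% DMSO as vehicle or PF-06409577 (PF) at 10 μM, an activator of AMPK complexes that hold the β1 subunit, for 6 h. Each of the 4 groups had 3 libraries, named here 1 to 3 in the order of the table, so the numbers only name a library. Mouse strain and age are not given in the sources used here, and nothing states whether the libraries of a group came from separate mice or cultures, so p-values measure only the spread between these libraries, which may be technical.

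IRFs act at several steps of the interferon response. IRF3 and IRF7 wait in the cytoplasm until kinases downstream of nucleic acid sensors phosphorylate them, and then switch on the interferon genes, and IRF5 does the same downstream of MyD88 and also drives inflammatory cytokines. Secreted interferon then acts through JAK kinases on the ISGF3 complex, in which IRF9 is the IRF subunit, and *Irf7* is itself one of the genes that ISGF3 raises. IRF1 is induced by interferon and drives antigen-processing genes, IRF2 competes with it for the same sites, and IRF8 and IRF4 work with PU.1 in the identity of macrophages, dendritic cells and B cells.

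Upstream sequence of 4 members is shown because it differs in the elements through which interferon, cytokine and NF-κB signals reach a gene, and because these 4 hold the member with the largest difference (*Irf7*), the one called higher between the genotypes with PF (*Irf2*), and 2 further members with STAT-binding elements (*Irf1* and *Irf8*). The sequences are the RefSeq promoters of GRCm38.p6, read 5′ to 3′ on the strand of the gene and ending before the start of both the RefSeq and the GENCODE M21 gene model. They cover chr11:53769764-53770013 (+) for *Irf1*, chr8:46739495-46739731 (+) for *Irf2*, chr7:141266482-141266674 (-) for *Irf7* and chr8:120736108-120736357 (+) for *Irf8*. Capitals mark an ISRE core, a STAT-binding GAS element, an ETS-IRF composite element or an NF-κB consensus.
Irf1: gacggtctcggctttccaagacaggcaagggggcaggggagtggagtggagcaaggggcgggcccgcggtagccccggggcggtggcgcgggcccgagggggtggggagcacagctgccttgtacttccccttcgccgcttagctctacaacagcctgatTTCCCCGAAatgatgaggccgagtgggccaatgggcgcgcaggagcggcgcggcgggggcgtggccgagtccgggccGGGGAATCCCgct
Irf2: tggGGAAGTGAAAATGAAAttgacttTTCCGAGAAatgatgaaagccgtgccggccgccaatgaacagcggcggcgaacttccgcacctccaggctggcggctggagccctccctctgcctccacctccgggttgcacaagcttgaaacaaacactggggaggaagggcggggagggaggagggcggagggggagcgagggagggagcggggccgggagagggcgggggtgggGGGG
Irf7: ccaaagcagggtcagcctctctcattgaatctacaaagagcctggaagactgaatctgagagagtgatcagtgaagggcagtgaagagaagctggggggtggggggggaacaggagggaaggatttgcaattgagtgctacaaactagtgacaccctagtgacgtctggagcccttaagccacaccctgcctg
Irf8: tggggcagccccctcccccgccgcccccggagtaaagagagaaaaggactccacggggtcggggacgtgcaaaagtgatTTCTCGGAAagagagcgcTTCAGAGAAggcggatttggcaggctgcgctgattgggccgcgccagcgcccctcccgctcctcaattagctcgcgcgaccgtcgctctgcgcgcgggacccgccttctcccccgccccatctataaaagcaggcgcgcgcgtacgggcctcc
The motifs searched on both strands in the 250 bases before the RefSeq start were GAAA and GAAA spaced by 2 bases for the ISRE core, TTCNNNGAA for GAS, GGAA and GAAA spaced by 2 bases for the ETS-IRF composite, TATAAA for the TATA box, GGGCGG for the GC box and the NF-κB consensus. They occurred in 2.98%, 7.02%, 2.3%, 12.4%, 32.7% and 7.25% of 32851 mouse promoters of that length. *Irf1* held a GAS match beginning 90 bases before the start and an NF-κB match at 13. *Irf2* held an ISRE core at 241 bases that overlaps an ETS-IRF composite at 247, a GAS match at 224 and an NF-κB match at 17, of which only the first 4 bases lie in the stretch shown. *Irf8* held GAS matches at 171 and 153. *Irf7* held only a TATA box, at 29 bases and beyond the stretch shown, while *Irf3*, *Irf5*, *Irf9* and *Irf4* held none of the 4 capitalised elements. For *Irf9* the windows searched lie inside its GENCODE M21 gene model, so sequence before the start of that model was not searched. A match describes letters in this window and does not show that a factor binds there.

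The libraries held 8935609 to 14358180 counts, and 3 counts, taken as the floor of detection, stood for 0.196 to 0.321 CPM (counts scaled to the library by the TMM method) depending on the library, a floor that covers counting error only. *Prkab1*, which encodes AMPKβ1, had 399 to 490 counts in WT libraries and 57 to 120 in AMPKβ1-/- libraries (log2 fold change with vehicle -2.58, edgeR adjusted p = 8.85e-09), as the labels state. All 11 macrophage markers were detected, with summed levels of 30417 to 37268 CPM, whereas the defining dendritic markers *Flt3*, *Zbtb46*, *Clec9a* and *Siglech* lay between 0 and 0.538 CPM. The libraries also differed in how counts moved with the GC content of a gene. The slope was 0.37 to 0.74 on the log2 scale per 10 points of GC in WT vehicle, -0.054 to 0.38 in WT PF, -0.37 to -0.10 in AMPKβ1-/- vehicle and -0.53 to -0.34 in AMPKβ1-/- PF, and a second fit with this trend and that of gene length removed per library is given beside the results of the members.

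*Irf5*, *Irf7* and *Irf8* dominated the family in every group. In WT vehicle BMDMs the mean level per kilobase of gene model was 314 ± 39.7 CPM per kilobase (SD, n = 3) for *Irf7*, 310 ± 20.2 for *Irf5* and 233 ± 14.7 for *Irf8*. *Irf7* and *Irf5* did not differ beyond their spread, and *Irf8* lay below both in every library. The next levels were 77.8 ± 11.0 for *Irf1*, 69.0 ± 4.24 for *Irf9* and 62.9 ± 9.42 for *Irf2*, whose ranges overlapped from one to the next, followed by *Irf3* at 49.4 ± 3.10. *Irf4*, best known from lymphocytes, dendritic cells and alternatively activated macrophages, stood far below at 1.36 ± 0.0962 CPM per kilobase and rested on 51 to 102 counts a library. The order at the top differed by genotype, since in AMPKβ1-/- vehicle BMDMs *Irf5* led with 248 ± 7.65, ahead of *Irf7* at 179 ± 9.11 and *Irf8* at 155 ± 5.03 CPM per kilobase, with no overlap between these 3. The summed CPM of the 8 genes was 2277 ± 135 in WT vehicle, 1930 ± 259 in WT PF, 1617 ± 52.2 in AMPKβ1-/- vehicle and 1474 ± 109 in AMPKβ1-/- PF.

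**Figure D1:**
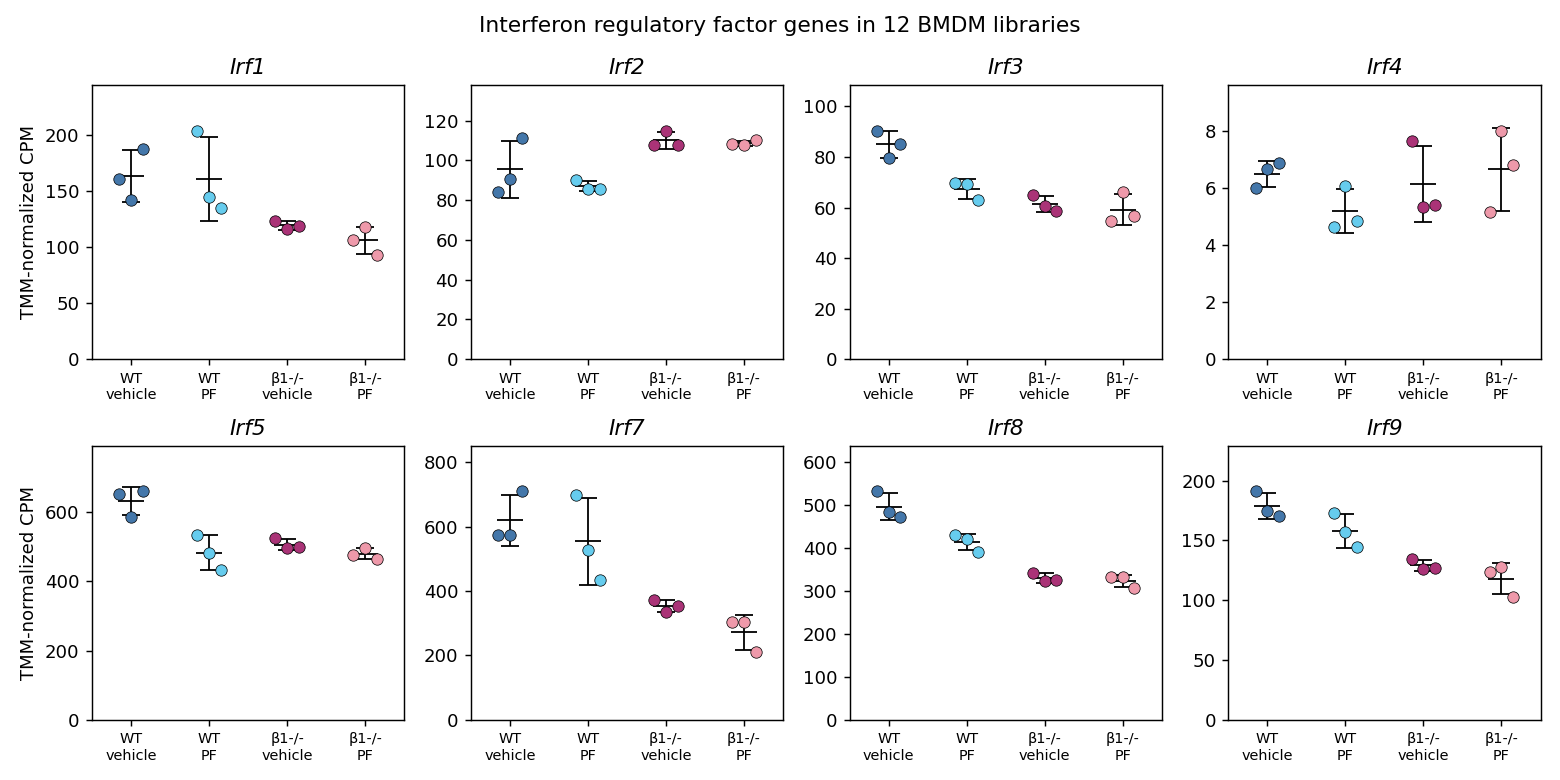
TMM-normalized CPM (vertical axis, linear and starting at 0) of each IRF gene in the 12 libraries, with 1 point per library, a bar at the mean and whiskers of 1 SD (n = 3) for WT vehicle, WT PF, AMPKβ1-/- (β1-/-) vehicle and AMPKβ1-/- PF. *Irf7* lies between 435 and 710 CPM in WT libraries and between 210 and 371 CPM in AMPKβ1-/- libraries, and *Irf2* is the member with the higher AMPKβ1-/- points.

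The first comparison asked what PF did to these genes in WT BMDMs. PF lowered *Irf3*, *Irf5* and *Irf8*, raised none, and left the other 5 short of the threshold of an adjusted p below 0.05 (edgeR quasi-likelihood test, Benjamini-Hochberg over all tested genes). These 3 of 8 stand beside 8.95% of all tested genes called lower in this comparison and 6.99% called higher, and none of the 3 passed the size threshold of the study's methods, a log2 fold change beyond 0.8, which 1.52% of all genes did. In bulk RNA a lower level in every cell cannot be told apart from a smaller share of expressing cells.

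*Irf5* had 651, 585 and 660 CPM in the WT vehicle libraries and 534, 482 and 433 CPM in the WT PF libraries. Every PF library lay below every vehicle library, with a log2 fold change of -0.39 (SE 0.082, edgeR adjusted p = 0.00876). *Irf3*, the IRF held ready downstream of TBK1, had 90.4, 79.8 and 85.2 CPM with vehicle and 69.7, 69.4 and 62.9 CPM with PF. These groups did not overlap either, and the log2 fold change was -0.34 (SE 0.090, edgeR adjusted p = 0.0234). *Irf8* had 532, 485 and 473 CPM with vehicle and 430, 421 and 392 CPM with PF, again without overlap. Its log2 fold change of -0.26 was the smallest of the 3 (SE 0.073, edgeR adjusted p = 0.0273), and non-overlapping groups with PF lower were seen for 18.1% of all tested genes.

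None of *Irf7*, *Irf1*, *Irf9*, *Irf2* and *Irf4* was called with PF in WT cells. *Irf7* had 575, 573 and 710 CPM with vehicle and 700, 529 and 435 CPM with PF, so the spread inside each group covered the difference (log2 fold change -0.16, SE 0.17, edgeR adjusted p = 0.505). *Irf1* had 160, 142 and 188 CPM with vehicle and 204, 145 and 135 CPM with PF, with a log2 fold change of -0.020 (SE 0.14) that turned to 0.055 when libraries were scaled by their total alone. In both genes vehicle library 3 and PF library 1 stood highest. *Irf9*, the DNA-binding part of ISGF3, had a log2 fold change of -0.18 (SE 0.092, edgeR adjusted p = 0.179), *Irf2* of -0.13 (SE 0.092, adjusted p = 0.302) and *Irf4* of -0.33 (SE 0.20, adjusted p = 0.25).

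The 3 calls in WT depended on single libraries and on the fit. *Irf3* lost its call when vehicle library 1, vehicle library 3, PF library 2 or PF library 3 was dropped (edgeR adjusted p = 0.0882, 0.0611, 0.0646 and 0.12), *Irf8* with vehicle library 1, PF library 2 or PF library 3 dropped (adjusted p = 0.104, 0.0802 and 0.141) and *Irf5* with PF library 3 dropped (adjusted p = 0.0565). A model of only the 6 WT libraries called 0 of the 8 genes, and calls over all genes fell with it from 969 lower and 756 higher to 209 lower and 210 higher. The 3 genes have GC contents of 57.3% (*Irf3*), 56.9% (*Irf5*) and 56.8% (*Irf8*), against a median of 50.4% over the tested genes. With the GC and length trend removed, when 7.19% of all genes were called, their log2 fold changes were -0.12, -0.16 and -0.025 with adjusted p of 0.319, 0.0535 and 0.852, and over all alternatives the adjusted p ran from 0.012 to 0.319, from 0.000609 to 0.0638 and from 0.0118 to 0.852. In that same fit *Irf2*, which has 44.3% GC, was the single member called, at -0.52 (SE 0.13, adjusted p = 0.0343, with 0.953 the highest over its alternatives).

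**Figure D2:**
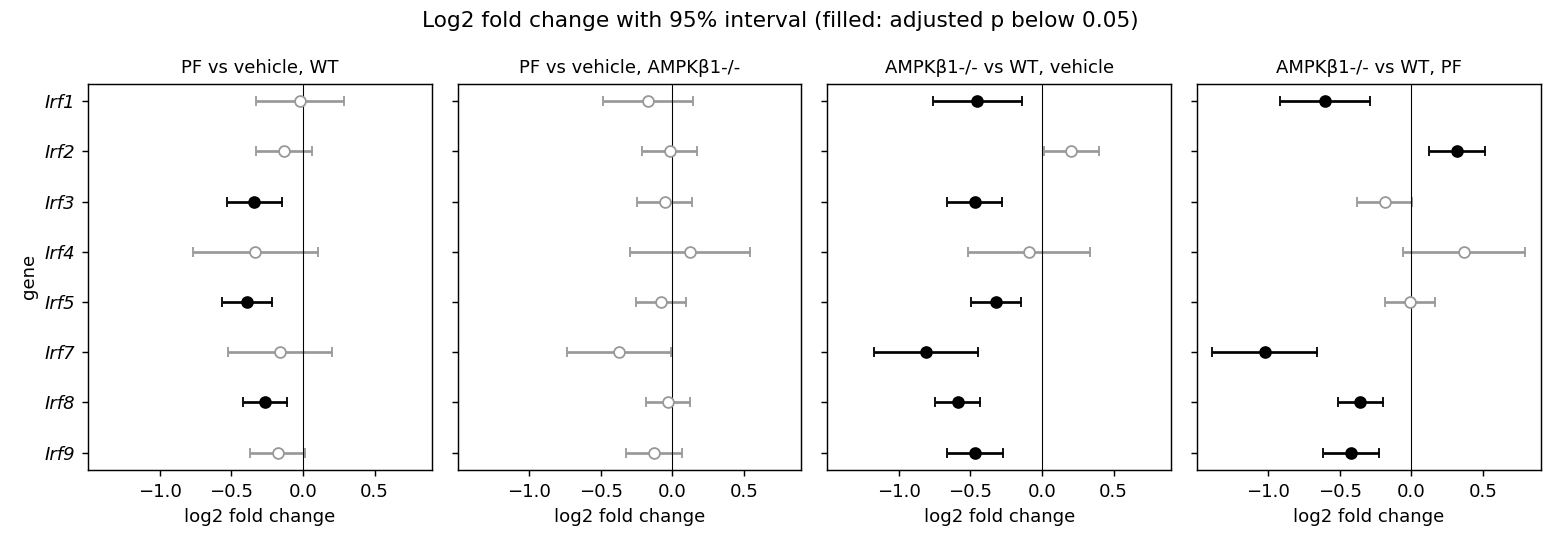
Log2 fold change (horizontal axis) of each IRF gene in 4 comparisons with its 95% interval from the edgeR fit of 12 libraries, filled black where the adjusted p was below 0.05 and open grey otherwise. With PF in WT, 3 genes are filled on the lower side, with PF in AMPKβ1-/- none, and between the genotypes 6 are filled with vehicle and 5 with PF.

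The same treatment in AMPKβ1-/- BMDMs asked whether a change needs the β1 subunit. None of the 8 members was called there, in a comparison where 0.0554% of all tested genes were called, and 1 of 8 had an unadjusted p below 0.05, against 4.98% of all tested genes. DESeq2 called 0 of 8 as well. That gene was *Irf7*, with 371, 335 and 355 CPM with vehicle and 303, 305 and 210 CPM with PF. Every PF library lay below every vehicle library, as for 6.28% of all genes, and PF library 3 lay well below the other two. The log2 fold change was -0.37 (SE 0.17, unadjusted p = 0.0438, edgeR adjusted p = 0.982), or -0.22 without PF library 3. The log2 fold changes of *Irf3*, *Irf5* and *Irf8* were -0.054 (SE 0.091), -0.079 (SE 0.082) and -0.030 (SE 0.073), with AMPKβ1-/- groups that overlapped.

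Whether the response differed between the genotypes was tested by the interaction term. No member passed it, in a test that called 0.416% of all genes, 3 of 8 had an unadjusted p below 0.05 beside 14.3% of all genes, and the adjusted p ran from 0.2505 for *Irf5* to 0.889 for *Irf9*. The WT minus AMPKβ1-/- difference in log2 fold change was -0.31 for *Irf5* (95% interval -0.56 to -0.063), -0.28 for *Irf3* (-0.56 to -0.012, adjusted p = 0.333) and -0.23 for *Irf8* (-0.45 to -0.013, adjusted p = 0.329), each from edgeR across all genes. The 3 falls seen in WT were therefore not shown to differ between the genotypes once adjusted over all genes, and DESeq2 called 0 of 8 interactions as well. With the GC and length trend removed these differences were -0.12, -0.10 and -0.036.

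The next comparison was of the genotypes without drug. With vehicle, 6 of the 8 genes were lower in AMPKβ1-/- than in WT BMDMs and none was called higher by edgeR with TMM, where 30.0% of all tested genes were called lower and 29.7% higher. Libraries of the 2 genotypes did not overlap for any of the 6, a state that held for 32.0% of all genes in the lower direction. *Irf7* was the only member beyond a log2 fold change of 0.8, as were 17.8% of all genes. Scaled by library size alone, 4 members were called lower and 1, *Irf2*, higher, while the split over all genes moved from 3249 lower and 3216 higher to 1600 lower and 4296 higher.

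*Irf7* had 575, 573 and 710 CPM in WT and 371, 335 and 355 CPM in AMPKβ1-/- libraries, or 619 ± 78.4 against 354 CPM on average. The log2 fold change was -0.81, a level of 0.571 of WT (SE 0.17, edgeR adjusted p = 0.00124). *Irf9* followed the same direction, with 191, 174 and 170 CPM against 134, 126 and 127 CPM and a log2 fold change of -0.47 (SE 0.092, edgeR adjusted p = 0.00061). *Irf1* had 160, 142 and 188 CPM against 124, 116 and 119 CPM, a log2 fold change of -0.45 (SE 0.15, edgeR adjusted p = 0.0162). Its call was lost without WT vehicle library 3 (adjusted p = 0.0787) or AMPKβ1-/- vehicle library 2 (0.0541), within a range over its alternatives from 0.00144 to 0.238.

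The lineage factor *Irf8* had the smallest p of the family in this comparison. Its 532, 485 and 473 CPM in WT stood against 343, 324 and 325 CPM in AMPKβ1-/- libraries, with a log2 fold change of -0.59 (SE 0.073, edgeR adjusted p = 3.84e-05). IRF8 is also a defining factor of dendritic cells, and the summed level of the 7 dendritic markers detected, of 9 listed, was 8.16 to 9.04 CPM in WT vehicle and 4.92 to 5.41 CPM in AMPKβ1-/- vehicle libraries, most of it *Itgax*, which macrophages express too. The part of this in the difference of *Irf8* was not tested, while *Flt3*, *Zbtb46*, *Clec9a* and *Siglech* were at or near 0 in every library. *Irf3* had 90.4, 79.8 and 85.2 CPM against 65.0, 60.6 and 58.8 CPM (log2 fold change -0.47, SE 0.090, edgeR adjusted p = 0.000519). *Irf5* had 651, 585 and 660 CPM against 524, 496 and 498 CPM (log2 fold change -0.32, SE 0.082, edgeR adjusted p = 0.00367). The member that competes with IRF1, *Irf2*, had 84.1, 90.6 and 111 CPM in WT and 108, 115 and 108 CPM in AMPKβ1-/- libraries. These groups overlapped through WT library 3, and the log2 fold change of 0.21 was not called (SE 0.092, edgeR adjusted p = 0.063), though it was without that library (0.33, adjusted p = 0.00279) and, at 0.23 with adjusted p from 0.04 to 0.0415, under RLE factors, a minimum of 10 counts or DESeq2. *Irf4*, with 5.99 to 6.87 CPM in WT and 5.35 to 7.66 CPM in AMPKβ1-/- libraries, gave -0.089 (SE 0.20, adjusted p = 0.718).

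The GC content of the members moved with this result, since 5 of the 6 lower genes lay above the median GC of 50.4% by more than a point (*Irf1* 52.4%, *Irf7* 56.0%, *Irf3*, *Irf5* and *Irf8* as given), the remaining one, *Irf9*, at 50.9%, and the 2 genes not called below it (*Irf2* 44.3%, *Irf4* 47.6%). With the GC and length trend removed, when 33.2% of all genes were called instead of 59.7%, *Irf9* and *Irf8* were still called lower, at -0.33 (adjusted p = 0.00193) and -0.18 (adjusted p = 0.0196), and *Irf7* fell by 0.41 and missed the threshold (adjusted p = 0.0692, with 6.1e-06 the lowest over its alternatives). In that fit *Irf1* was at -0.21 and *Irf3* at -0.026, *Irf5* turned to 0.098, and *Irf2* turned to -0.37 and was called (adjusted p = 0.0496). *Irf9* was thus the member whose difference moved least of the 6.

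**Figure D3:**
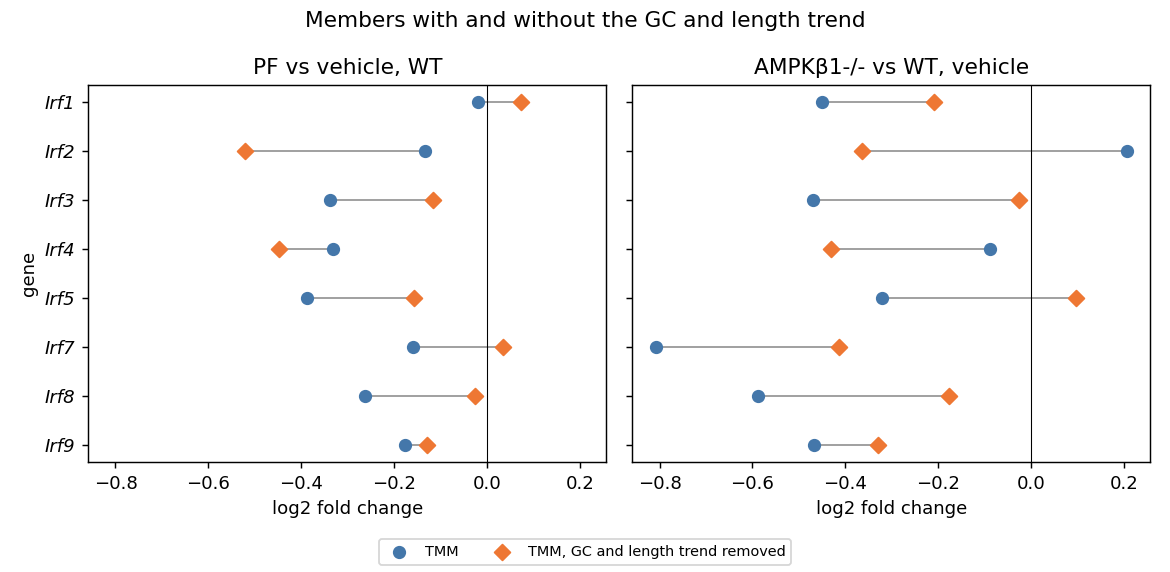
Log2 fold change (horizontal axis) of each IRF gene with TMM scaling (blue circles) and with the trend on GC content and gene length also removed per library (orange diamonds), for PF against vehicle in WT and for AMPKβ1-/- against WT with vehicle. The diamonds of *Irf3*, *Irf5* and *Irf8* lie closer to 0 than the circles in both panels, those of *Irf2* and *Irf4* lie lower, and *Irf9* keeps -0.33 of its -0.47 between the genotypes.

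With PF in both genotypes, 4 members were lower in AMPKβ1-/- BMDMs, where 22.9% of all tested genes were, and 1 was higher, where 24.1% were. This comparison shares no library with the previous one. *Irf7* had 700, 529 and 435 CPM in WT PF and 303, 305 and 210 CPM in AMPKβ1-/- PF libraries, with a log2 fold change of -1.02 (SE 0.17, edgeR adjusted p = 0.0004), the largest of the family in any comparison and the only one here beyond 0.8, as for 14.3% of all genes. *Irf1* had 204, 145 and 135 CPM against 106, 118 and 93.3 CPM, without overlap as for 30.0% of all genes in that direction, and a log2 fold change of -0.60 (SE 0.15, edgeR adjusted p = 0.00429). *Irf9* had 173, 157 and 144 CPM against 123, 128 and 103 CPM, again without overlap (log2 fold change -0.42, SE 0.092, edgeR adjusted p = 0.00192).

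*Irf8* was lower by less than with vehicle, at 430, 421 and 392 CPM against 332, 332 and 307 CPM (log2 fold change -0.36, SE 0.073, edgeR adjusted p = 0.00118). *Irf2* was higher, at 90.0, 85.4 and 85.5 CPM in WT PF and 108, 108 and 110 CPM in AMPKβ1-/- PF libraries. The groups did not overlap, as for 29.9% of all genes in that direction, and the log2 fold change was 0.32 (SE 0.092, edgeR adjusted p = 0.00983), while it was 0.031 with the GC and length trend removed (adjusted p = 0.877, with 0.0018 the lowest over its alternatives). *Irf5* and *Irf3*, both lower with vehicle, were not called here, at -0.011 (SE 0.082, adjusted p = 0.924) and -0.19 (SE 0.091, adjusted p = 0.103). *Irf3* was called without AMPKβ1-/- PF library 2 (-0.27, adjusted p = 0.0342), and *Irf5* turned to 0.22 with the trend removed and was called higher (adjusted p = 0.00154). *Irf1*, *Irf7* and *Irf9* kept their calls in that fit, at -0.43, -0.78 and -0.31, and *Irf8* missed it at -0.14 (adjusted p = 0.0531, with 5.98e-05 the lowest over its alternatives). *Irf4* stood at 0.37 (SE 0.20, adjusted p = 0.146).

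The members differed in how their level moved over the 12 libraries. Likeness was measured as the root mean square difference between 2 profiles of log2 CPM, each centred on its own mean, over 12 libraries. The closest pair was *Irf8* and *Irf9* at 0.0702, then *Irf3* and *Irf8* at 0.0997, and the farthest *Irf2* and *Irf7* at 0.633. Of all tested genes the profiles nearest to *Irf7* were those of *Mov10* (0.0915), an RNA helicase, and *Lgals9* (0.122), a galectin, beside a median distance of 0.545 over all genes. Nearest to *Irf9* were *Tbcd* and *Gpr108* (0.0391 and 0.0488), to *Irf8* *Washc1* and *Pes1* (0.0383 and 0.0411), to *Irf5* *Slc11a1* and *Rnpep* (0.0360 and 0.0377), to *Irf3* *Rnf167* and *R3hdm4* (0.0533 and 0.0558), to *Irf1* *Ccdc86* and *Mafk* (0.0750 and 0.0754) and to *Irf2* *App* and *Susd6* (0.0519 and 0.0546). These distances describe likeness over shared libraries and carry no test.

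The genes upstream of the IRFs were followed as lists. None of the 8 interferon genes listed, the type I, II and III ligands, was in the count table. With PF in WT, 5 of 17 sensors and adaptors fell and none rose, beside 8.95% and 6.99% of all genes, with a median log2 fold change over the 17 of -0.093 beside 0.0048 over all genes. They were led by *Sting1*, the adaptor of cytosolic DNA sensing (-0.58, SE 0.088, edgeR adjusted p = 0.00137), and *Tlr9*, the endosomal receptor of unmethylated DNA (-0.65, SE 0.11, adjusted p = 0.00227). Of 13 kinases and ligases, *Ikbke*, a kinase of IRF3 and IRF7, fell (-0.50, SE 0.094, adjusted p = 0.00468) and *Chuk* rose (0.72, SE 0.22, adjusted p = 0.0437). After removal of the GC and length trend, 2 of the 17 sensors were called lower and 0 higher with PF in WT. Of the 13 kinases and ligases 1 was then lower and 0 higher, so *Chuk* lost its call. Calls over all genes fell to 7.19% in that fit. Between the genotypes with vehicle, 6 sensors were higher and 8 lower in AMPKβ1-/- cells, beside 29.7% and 30.0% of all genes, among them *Tlr4*, higher by 1.72 in log2 units (SE 0.25, adjusted p = 0.000127), and *Sting1* 0.611 of its WT level (adjusted p = 3.84e-05). Of the kinases and ligases 7 were higher and 1 lower, led by *Peli1* (1.22, SE 0.19, adjusted p = 0.000152) and *Chuk* (1.41, SE 0.22, adjusted p = 0.000156). With the GC and length trend removed these counts were 2 higher and 4 lower for the sensors and 4 higher and 2 lower for the kinases, while calls over all genes fell from 59.7% to 33.2%.

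The receptors, partners and brakes around the IRFs changed in both directions. Over all genes 8.95% were called lower and 6.99% higher with PF in WT, and 30.0% lower and 29.7% higher between the genotypes with vehicle. In WT cells given PF, 2 of 10 receptor and JAK-STAT genes fell, *Tyk2* (-0.35, SE 0.091, adjusted p = 0.0228) and *Stat3* (-0.31, SE 0.091, adjusted p = 0.0338). Of the 11 tested DNA-binding partners and corepressors 5 fell and none rose, among them *Spi1*, which encodes PU.1, the partner of IRF8 and IRF4 (-0.39, SE 0.093, adjusted p = 0.0163), and *Etv6* (-0.42, SE 0.098, adjusted p = 0.0149). The median GC of this list was 58.9%, and 2 were called lower with the trend removed. Of 13 brakes 2 fell, the phosphatase gene *Ptpn6* (-0.30, SE 0.074, adjusted p = 0.0181) and *Rbck1* (-0.35, SE 0.097, adjusted p = 0.0286). After removal of the trend, 0 of the 10 receptor genes and 1 of the 13 brakes were called with PF in WT, beside 7.19% of all genes. Between the genotypes with vehicle, *Jak2* was higher (1.24, SE 0.19, adjusted p = 0.000133) and *Tyk2* lower (-0.55, SE 0.092, adjusted p = 0.000214) among 3 higher and 2 lower receptor genes. *Spi1* (-0.44, SE 0.093, adjusted p = 0.00103) and the IRF partner *Batf2* (-1.0, SE 0.22, adjusted p = 0.00117) were among 5 lower partners, with 2 higher, and *Rbck1* (-0.67, adjusted p = 9.8e-05) was among 5 lower brakes, with 4 higher. With the GC and length trend removed, 1 partner was lower and 3 higher, and 4 brakes were lower and 1 higher. Of the receptor genes 1 was then lower and 2 higher.

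The target genes of the IRFs did not all follow their factor. With PF in WT, none of the 20 listed ISGF3, IRF3 and IRF7 targets was called, where 15.9% of all genes were, with a median log2 fold change of 0.066. DESeq2 also called 0 of the 20, and 0 had an unadjusted p below 0.05 in edgeR, beside 35.3% of all genes. With vehicle, 5 of the 20 were lower in AMPKβ1-/- cells, including *Bst2* (-0.45, SE 0.093, edgeR adjusted p = 0.000776) and the 2-5A synthetase gene *Oas1a* (-0.70, SE 0.14, adjusted p = 0.001), and 2 were higher, beside 30.0% of all genes called lower and 29.7% higher. The median of -0.17 turned to 0.19 without WT vehicle library 3, and removal of the GC and length trend left 2 of the 20 lower and 0 higher. Among 17 IRF1 targets 7 were lower and 3 higher in AMPKβ1-/- cells, beside the same shares of all genes, the lower ones led by the immunoproteasome genes *Psmb9* (-0.67, SE 0.10, adjusted p = 0.000142) and *Psmb10* (-0.67, SE 0.11, adjusted p = 0.000169). With the GC and length trend removed 5 of the 17 were lower and 1 higher. In WT cells PF raised 1 of the 17 IRF1 targets and lowered 1, beside 6.99% and 8.95% of all genes. The gene raised was *Cd274*, which encodes the checkpoint ligand PD-L1 (1.22, SE 0.16, adjusted p = 0.000588). The gene lowered was *Ciita*, the regulator of MHC class II genes (-0.64, SE 0.14, adjusted p = 0.011). After removal of the trend 1 was called higher and 2 lower. Of 15 IRF8 targets 5 were lower and 9 higher in AMPKβ1-/- cells although *Irf8* was lower, beside the same shares of all genes, with *Cd68* (-0.72, SE 0.084, adjusted p = 2.7e-05) having the smallest p. With the GC and length trend removed, when 33.2% of all genes were called, 6 of these 15 were lower and 2 higher. The median over the 15 was then -0.30, against 0.27 before. In WT cells PF lowered 1 of the 15, *Ncf1* (-0.36, SE 0.085, adjusted p = 0.0137), and raised 1, *Ctss* (0.43, SE 0.11, adjusted p = 0.0177). After removal of the trend 2 of the 15 were called lower and 0 higher with PF in WT, so *Ctss* lost its call. Of 11 IRF4 and IRF5 targets only 3 could be tested, of which *Tnf* was lower in AMPKβ1-/- cells (-0.27, SE 0.10, adjusted p = 0.0275).

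The level of *Irf7* and that of the 20 targets were also read library by library. The mean log2 CPM of the targets was 6.93 in WT PF library 1 and 6.86 in WT vehicle library 3, the libraries in which *Irf7* was also highest, at 9.45 and 9.47 log2 CPM. It was 5.28 in AMPKβ1-/- PF library 3, where *Irf7* was lowest at 7.71. In the other 9 libraries the target mean lay between 6.07 and 6.40, whereas *Irf7* ran from 8.25 to 9.17 log2 CPM, with WT above AMPKβ1-/- libraries throughout. With PF in AMPKβ1-/- cells all 20 targets had negative log2 fold changes. None was called by edgeR or DESeq2, beside 0.0554% and 0.453% of all genes, and 1 had an unadjusted edgeR p below 0.05, beside 4.98% of all genes. The median of -0.37, beside -0.0040 over all genes, became -0.15 without AMPKβ1-/- PF library 3. With PF in both genotypes 11 of the 20 were lower in AMPKβ1-/- cells, beside 22.9% of all genes. The count was 6 without WT PF library 1, 7 without AMPKβ1-/- PF library 3 and 8 once the GC and length trend was removed. Over all genes the number called lower went from 2481 to 1830, 1801 and 2356 in these settings, in the same order. The shared sources of these points (library, depth and base composition) allow no test of a relation.

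**Figure D4:**
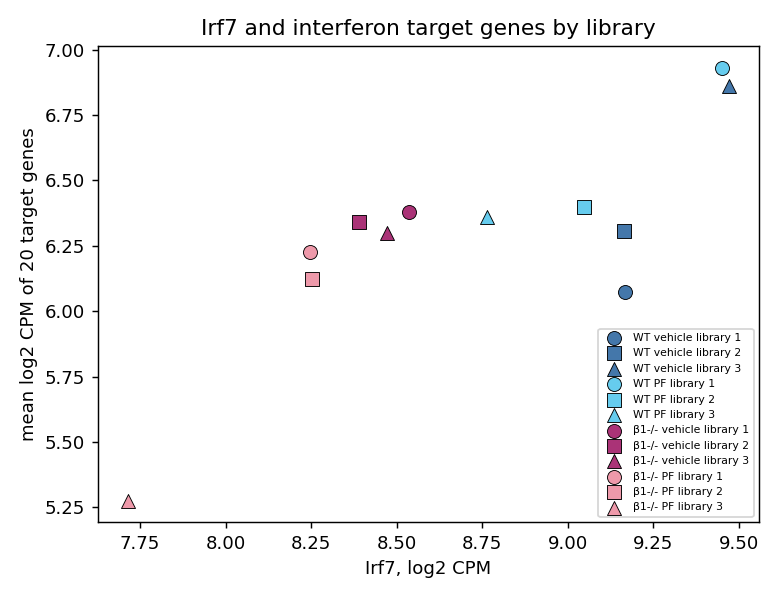
*Irf7* (horizontal axis, log2 CPM) against the mean of 20 ISGF3, IRF3 and IRF7 target genes (vertical axis, log2 CPM), with 1 point per library, coloured by group and shaped by library number (β1-/- is AMPKβ1-/-). WT PF library 1 and WT vehicle library 3 lie at the upper right, AMPKβ1-/- PF library 3 at the lower left, and the other 9 libraries between 6.07 and 6.40 on the vertical axis.

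In GENCODE M21 (GRCm38) *Irf7* spans chr7:141262706-141266481 on the minus strand, and the other members lie on the plus strand. *Irf3* spans chr7:44997648-45002848, *Irf8* chr8:120736358-120756694, *Irf2* chr8:46739732-46847458, *Irf5* chr6:29526625-29541871, *Irf1* chr11:53770014-53778374, *Irf4* chr13:30749226-30766976 and *Irf9* chr14:55603571-55610030, all protein-coding genes. Exons of 5 members overlap those of another gene. The overlap was 411 bases of *Irf5* with *Tnpo3*, 135 of *Irf1* with *Gm17334*, 88 of *Irf3* with *Bcl2l12* and 45 of *Irf7* with *Phrf1*, all on the opposite strand, and 123 of *Irf9* with *Rnf31* on the same strand. The library kit keeps strand, but the strand setting of the quantification is not given in the sources used here, so counts from these stretches are uncertain for each pair.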

How the data were processed

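Total RNA of 12 BMDM libraries was prepared with a directional kit and sequenced. The authors trimmed reads with Trim Galore, quantified transcripts with Salmon and deposited 1 table of estimated counts per gene; the genome build, annotation and strand setting are not given in the sources used here. Columns name a group but no sample number, so libraries were grouped by column name. Any fraction of an estimated count was dropped. The counts were filtered with filterByExpr, scaled by TMM (factors 0.881 to 1.09) and fitted in edgeR 4.0.16 (R 4.3.3). The fit was 1 robust quasi-likelihood model of 4 group means over 12 libraries, with Benjamini-Hochberg adjustment over 10822 genes. Each SE is the size of the log2 fold change over the root of F. The method was tested on simulated data. Log2 CPM used a prior count of 2. GC content and length came from GENCODE M21 transcripts (12703 genes matched by symbol, 195 by an older symbol, 62 by neither), and the trend was removed with natural splines of 5 degrees of freedom as an offset. DESeq2 1.42.0 and the other alternatives are described in the closing section. The members and gene lists were chosen with earlier results of these data known. Named genes were all members, *Prkab1*, the 2 genes of each list with the smallest p with PF in WT and between genotypes with vehicle, and the 2 nearest profiles of each called member. Some genes that this rule names are not reported here. No 2 libraries of a group were identical, and each pair differed by 2.04 to 15.7 times the counting variance.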

Additional observations from a re-analysis of the deposited data

Results flagged for a closer look

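2 genes of the lists differed between the genotypes in their response to PF by the interaction test, and no member did. They were 1 of 17 sensors and adaptors and 1 of 17 IRF1 targets, and no gene of the other lists was called. The test called 0.416% of all genes with edgeR and 1.76% with DESeq2, which gave the lowest adjusted p quoted below for both genes. *Sting1* had 78.0, 64.3 and 68.9 CPM with vehicle and 50.1, 45.0 and 46.1 CPM with PF in WT, against 44.8, 42.8 and 41.4 CPM with vehicle and 45.0, 43.3 and 44.0 CPM with PF in AMPKβ1-/- BMDMs. The WT minus AMPKβ1-/- difference in log2 fold change was -0.62 (SE 0.12, edgeR adjusted p = 0.0463), and over its alternatives the adjusted p lay between 0.00431 and 0.17. *Cd274* had 11.4, 11.7 and 18.8 CPM with vehicle and 33.4, 31.3 and 33.2 CPM with PF in WT, against 13.9, 15.3 and 14.5 CPM with vehicle and 15.8, 17.4 and 14.4 CPM with PF in AMPKβ1-/- BMDMs. Its difference was 1.10 (SE 0.22, edgeR adjusted p = 0.044), and the adjusted p ran from 0.00106 to 0.17. For both genes the direction was kept in every alternative, and the call was lost when any of several single libraries was left out. *Sting1* also lost its call under RLE size factors (adjusted p = 0.0511), and *Cd274* with the replicate block (0.0524) and after removal of the GC and length trend (0.0575). These alternatives were chosen after the values were seen.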

How the results depend on the processing

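With PF in WT, the count of 3 called members became 0 in a fit to the WT groups alone and 0 with a log2 fold change past 0.8 also required. It was 0 to 3 when each library was left out in turn. With the GC and length trend removed it was 1, which was *Irf2* and none of the 3. Between the genotypes with vehicle, 6 became 3 with that trend removed. These were *Irf8* and *Irf9* of the 6, and *Irf2*, newly called and lower. The 6 became 1 past 0.8, 7 (with *Irf2* higher) under RLE factors, a minimum of 10 counts or DESeq2, and 5 to 6 with a library left out. With PF in both genotypes 5 became 4 with the trend removed, 1 past 0.8, and 5 to 6 with a library left out. The 4 were *Irf1*, *Irf7* and *Irf9* of the 5, and *Irf5*, newly called and higher. With PF in AMPKβ1-/- cells and for the interaction the count was 0 throughout. Over all pathway lists, the 20 genes called with PF in WT became 5 in the WT groups alone, 11 with the trend removed and 4 to 33 with a library left out, and the 75 called between the genotypes with vehicle became 41 with the trend removed and 52 to 76. Beside these, calls over all genes with PF in WT went from 15.9% to 7.19% with the trend removed, 3.17% without PF library 3, and 209 lower and 210 higher in the WT groups alone, and between the genotypes with vehicle from 59.7% to 33.2% with the trend removed. The trend removal turned the sign of *Irf1* (0.073) and *Irf7* (0.033) with PF in WT, of *Irf8* with PF in AMPKβ1-/- cells (0.011), of *Irf2* (-0.37) and *Irf5* (0.098) between the genotypes with vehicle, and of *Irf3* (0.077) and *Irf5* (0.22) with PF. Scaling by library size alone moved the median of all genes between the genotypes to 0.18 with vehicle and 0.15 with PF. Of all genes it then called 587 lower and 1045 higher with PF in WT, against 969 and 756 with TMM, and 1359 lower and 3444 higher between the genotypes with PF, against 2481 and 2613, while the members kept 3 lower in the former and 4 lower and 1 higher in the latter. It turned *Irf1* with PF in WT (0.055), *Irf4* with vehicle (0.12), *Irf5* with PF (0.14) and the interaction of *Irf9* (0.013). *Irf5* with PF also turned under RLE factors (0.0030), a minimum of 10 counts (0.00935) and DESeq2 (0.0031). With a library left out, values that turned were near 0 and not called. They ran from -0.22 to 0.10 for *Irf1* with PF in WT, from -0.036 to 0.014 for *Irf2*, -0.039 to 0.31 for *Irf4* and -0.050 to 0.0070 for *Irf8* with PF in AMPKβ1-/- cells, from -0.28 to 0.014 for *Irf4* with vehicle and -0.081 to 0.068 for *Irf5* with PF between the genotypes, and in the interaction from -0.053 to 0.27 for *Irf1*, -0.20 to 0.012 for *Irf2* and -0.14 to 0.015 for *Irf9*. Libraries of the same number in different groups deviated together with correlations of -0.17 to 0.32. No reference value was computed for these, so they cannot decide whether the numbers pair libraries. A fit with the replicate block called 3, 0, 6 and 5 members and 0 in the interaction, as without it. Calls over all genes with PF in WT went from 15.9% to 18.3% with that block. *Irf4*, at 51 to 102 counts a library, had the widest intervals of the family, and the causes of these changes were not tested.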

Other observations

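With PF in both genotypes, none of the 13 kinases and ligases that activate IRFs had a negative log2 fold change in AMPKβ1-/- against WT BMDMs, and 6 were called higher (median 0.22 beside -0.0012 over all genes). With the GC and length trend removed, 4 of the 13 were negative, 5 were called higher and 1 lower. Calls over all genes then fell from 47.1% to 38.5%. The IRF1 targets moved mostly the other way, with 9 of 17 called lower and 3 higher and a median of -0.45. With the trend removed 8 were lower and 2 higher, with a median of -0.30. Of the 15 IRF8 targets 2 were called lower and 6 higher, with a median of 0.15. With the trend removed 5 were lower and 3 higher, with a median of -0.17. Over all genes 24.1% were called higher and 22.9% lower, and the shares of the remaining lists are to be read against these. The receptor and JAK-STAT genes gave 3 higher and 2 lower of 10, the sensors 5 higher and 4 lower of 17, the brakes 5 higher and 4 lower of 13 and the DNA-binding partners 2 higher and 1 lower of 11. With the trend removed these became 2 higher and 3 lower, 2 and 4, 3 and 8, and 6 and 1.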
